A study of Mus musculus with 6 samples.

Results

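The genes described here build, modify, fold and, where folding fails, remove proteins in the endoplasmic reticulum (ER) of mouse liver. Their 55 names form a list drawn up for this description with earlier results of these data known. For that reason no test over the whole list was run. The names were matched exactly to the gene names of the deposited count table. All 55 were found among its 25904 genes, and all 55 were among the 14606 genes with enough counts to be tested. They fall into 8 steps, namely 9 genes of the translocon and its associated TRAP complex, 4 of signal peptidase, 6 of the oligosaccharyltransferase, 2 of GDP-mannose synthesis, 7 lectin chaperones and glucose-trimming enzymes, 9 disulfide isomerases and thioredoxin-like proteins, 6 HSP90, prolyl isomerase and BiP cofactor genes, and 12 of ER-associated degradation (ERAD).

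Polyadenylated RNA was sequenced from livers of C57BL/6J mice. The 3 Het libraries came from mice with genotype Ptprd+/-, and the 3 WT libraries from Ptprd+/+ mice. Ptprd encodes protein tyrosine phosphatase delta, a receptor-type phosphatase, and the study asked, by its title, about its impairment in hepatic metabolic syndrome. The sources used here do not give the kind of altered allele or the sex, age, diet and sampling time of the mice. They also do not state that each library came from a separate mouse, so the number of mice behind the p-values is not known. Libraries of the same genotype differed by more than counting noise. The chi-square per gene between pairs of libraries was 69 to 90.6 in Het and 44.1 to 118 in WT.

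Secreted and membrane proteins enter the ER through the Sec61 channel while they are being made, lose their signal peptide to signal peptidase and receive sugar chains from the oligosaccharyltransferase. Trimming of the sugar chain, the lectins calnexin and calreticulin, and disulfide isomerases then guide folding, and chains that fail to fold are drawn back across the membrane, tagged with ubiquitin and degraded. Hepatocytes secrete albumin and most other plasma proteins by this route, and the transcription factors XBP1 and ATF6 raise many of its genes when unfolded protein accumulates.

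Total counts lay between 37924266 and 72954187 per library. Ptprd had 54.1, 78.1 and 63.5 CPM (read counts scaled to a common library size) in the Het libraries, against 128, 127 and 132 CPM in the WT libraries (log2 fold change -0.99 ± 0.14 SE), in the direction of the labels. By edgeR's quasi-likelihood test its adjusted p was 0.298, and by DESeq2 3.83e-06. Alb, the hepatocyte marker albumin, was at 144174, 118412 and 121107 CPM in Het against 109462, 100040 and 117403 CPM in WT. Libraries Het 2 and Het 3 stood apart on the circadian clock: the clock output gene Dbp was at 129 and 122 CPM in them, against 13.5 CPM in Het 1 and 14.4 to 29.6 CPM in WT. Values without those 2 libraries are given where results rest on them. Summed markers overlapped between genotypes for Kupffer cells (328 to 607 CPM in Het, 444 to 701 CPM in WT), stellate cells (268 to 298 CPM in Het, 287 to 332 CPM in WT) and cholangiocytes (45.1 to 54.8 CPM in Het, 47.6 to 61.9 CPM in WT), and of the 3 pancreatic markers in the table, Prss2 and Ctrb1 were at or near 0 and Cela1 was at 18.1, 11.9 and 19.3 CPM in Het against 9.42, 14.9 and 14.1 CPM in WT. By fold change, 7 of 8 Kupffer, 4 of 6 stellate and 2 of 5 cholangiocyte markers were lower in Het. Marco, alone of the Kupffer markers, did not overlap. It was at 37.1, 10.9 and 28.1 CPM in Het against 93.5, 69.9 and 53.8 CPM in WT. In whole-tissue RNA, fewer cells of a type and less RNA per cell cannot be told apart.

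Across the 55 genes, expression was modestly higher in Ptprd+/- than in Ptprd+/+ libraries. The fold change was above 1 for 44 genes (80%) and below 1 for 11, against 49.2% above 1 among all tested genes. The median log2 fold change, Het over WT, was 0.11 over the 55 genes and -0.00 over all tested genes, and that of the 55 genes was 0.06 without Het 1. Together the 55 genes took 9142, 9203 and 8805 CPM in Het libraries and 8121, 8214 and 7925 CPM in WT libraries, with means of 9050 ± 215 CPM in Het and 8087 ± 147 CPM in WT (SD, n = 3 each). The genotypes did not overlap in this sum and the ratio of its means was 1.12. The summed levels of 8 hepatocyte markers also did not overlap, at 153006 to 183905 CPM in Het against 127047 to 151879 CPM in WT, with 6 of the 8 above a fold change of 1 and a median log2 fold change of 0.28, and their part in the result was not tested. The excess was largest, by median, in GDP-mannose synthesis (0.68), and lowest in ERAD (0.05), signal peptidase (0.07) and the oligosaccharyltransferase (0.08). Without Het 1 the signal peptidase median was -0.01, and without either Het 2 or WT 3 the ERAD median was 0.10.

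No single member passed the test as fitted. By edgeR's quasi-likelihood test with Benjamini-Hochberg adjustment over all 14606 genes, 0 members were called, as were 0 genes in all (0%), with adjusted p from 0.298 to 0.988 over the members. At an unadjusted p under 0.05, 15 members (27.3%) were higher in Het, where 3.39% of all tested genes were, and 0 were lower, where 3.77% of all genes were. The 15 became 9 without WT 1 and likewise 9 without WT 3. Over all tested genes, 495 were higher as fitted, 366 without WT 1 and 459 without WT 3. The 3 Het values all exceeded the 3 WT values for 18 members (32.7%), against 7.15% of all genes, all were below for 1 member, Uggt2, against 6.72%, and 36 members overlapped. DESeq2 called 2 members higher, Syvn1 (adjusted p = 0.00082) and Gmppb (adjusted p = 0.000492), where it called 0.17% of all genes higher. edgeR without a filter on low counts called those and Derl3 (adjusted p = 0.0197), where 0.104% of all genes were called higher. limma-voom called 0 members. With 3 libraries per genotype the smallest two-sided p of an exact permutation test is 0.1. The 19 members that reached it are the same 18 and 1 without overlap, so this count adds no further evidence. The 95% interval lay inside a 1.5-fold change in either direction for 45 members, and it reached 1.5-fold higher or beyond for 9.

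**Figure D1:**
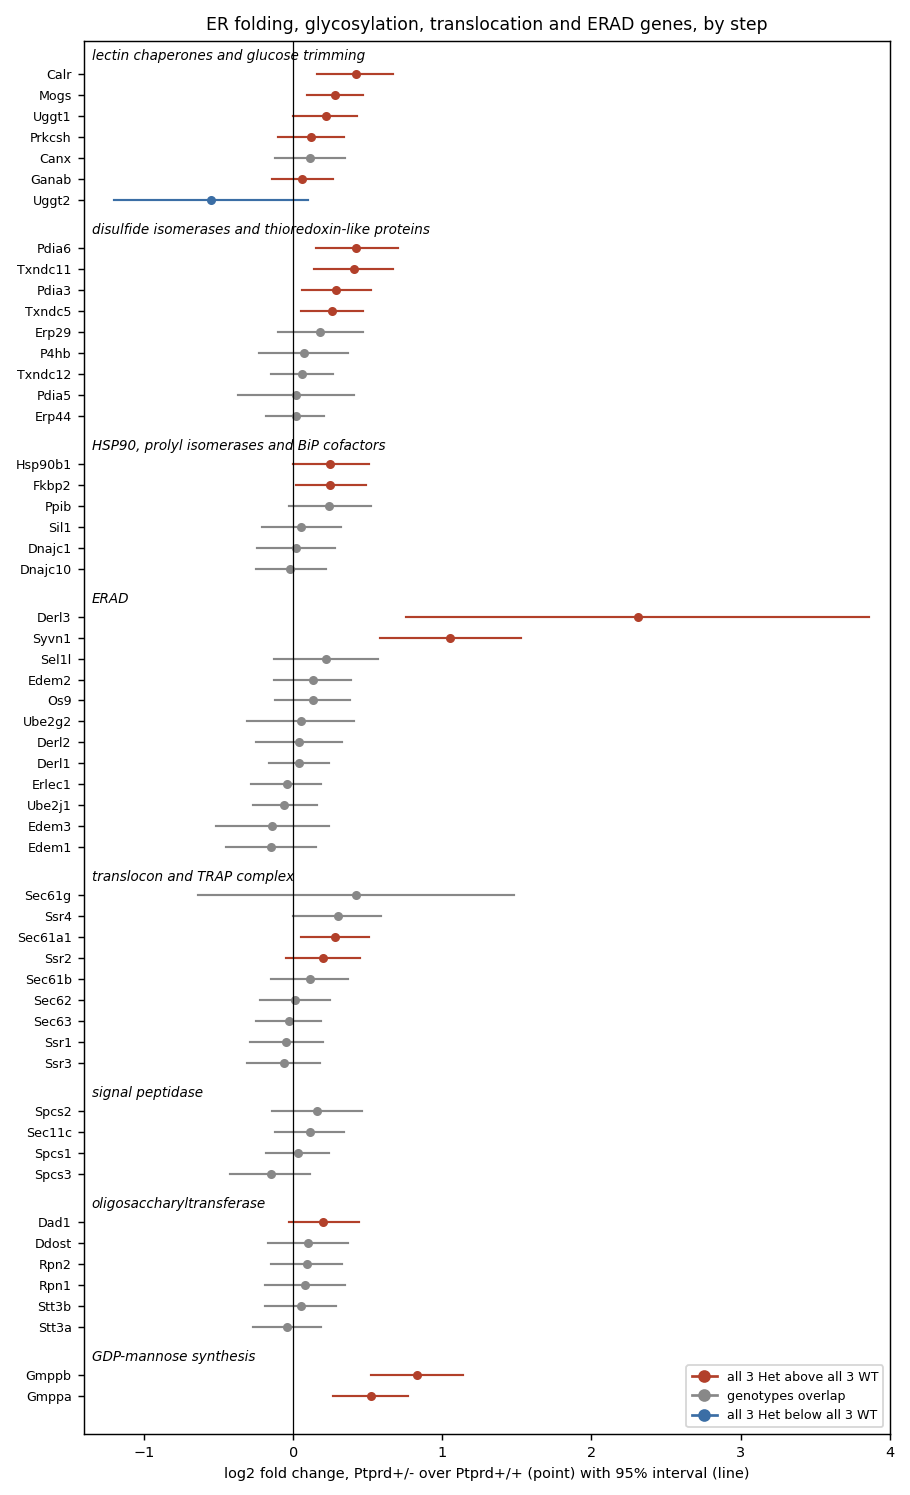
Log2 fold change (horizontal axis, Ptprd+/- over Ptprd+/+) of each of the 55 genes, grouped by step, with the 95% interval as a line. Red marks the 18 genes with all 3 Het libraries above all 3 WT libraries, blue the 1 gene with all below, and grey the 36 that overlap. Derl3 (2.31) and Syvn1 (1.05) lie farthest right and Uggt2 (-0.55) farthest left.

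Matches to the ER stress response element (ERSE), a sequence that ATF6 and XBP1 bind together with NF-Y, were sought in the promoters because members of different steps were higher together. The windows, from RefSeq on GRCm38.p6, the assembly of build mm10, run from 250 bases before to 50 after each annotated start, and 45 of the 55 genes had one. The search, on both strands, was for CCAAT followed by 9 bases of any kind and CCACG, which occurred in 39 of 32851 windows (0.119%) and in 6 members. The matches began 44 bases before the start in Syvn1, 156 in Derl3, 98 in Pdia6, 162 in Calr and 145 in Canx, and Hsp90b1 held a pair, at 212 and 107 bases before its start. The promoters of these 6 genes are shown 5′ to 3′ on the gene's strand, up to the first annotated exon base, with the CCAAT and CCACG boxes of each match, or their reverse complements ATTGG and CGTGG, in capitals. They are Syvn1 at chr19:6046326-6046575 (plus strand), Derl3 at chr10:75893148-75893397 (plus), Pdia6 at chr12:17266339-17266544 (plus), Calr at chr8:84846935-84847181 (minus), Hsp90b1 at chr10:86705510-86705694 (minus) and Canx at chr11:50325674-50325923 (minus).
Syvn1: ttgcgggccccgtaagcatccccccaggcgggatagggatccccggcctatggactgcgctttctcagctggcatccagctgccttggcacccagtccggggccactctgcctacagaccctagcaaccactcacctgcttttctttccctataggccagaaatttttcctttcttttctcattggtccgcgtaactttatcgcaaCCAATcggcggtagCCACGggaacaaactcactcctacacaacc
Derl3: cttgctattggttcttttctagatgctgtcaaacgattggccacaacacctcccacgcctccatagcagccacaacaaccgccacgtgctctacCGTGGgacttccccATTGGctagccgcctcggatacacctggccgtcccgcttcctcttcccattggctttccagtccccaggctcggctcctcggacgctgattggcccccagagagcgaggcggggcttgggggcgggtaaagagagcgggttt
Pdia6: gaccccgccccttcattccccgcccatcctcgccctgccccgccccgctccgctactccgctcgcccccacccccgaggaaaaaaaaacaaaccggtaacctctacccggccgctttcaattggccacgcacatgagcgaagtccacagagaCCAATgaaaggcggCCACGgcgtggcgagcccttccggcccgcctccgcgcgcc
Calr: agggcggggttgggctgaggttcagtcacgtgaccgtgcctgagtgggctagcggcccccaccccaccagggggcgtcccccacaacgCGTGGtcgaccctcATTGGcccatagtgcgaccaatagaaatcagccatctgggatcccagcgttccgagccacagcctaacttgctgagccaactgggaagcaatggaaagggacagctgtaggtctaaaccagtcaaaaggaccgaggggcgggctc
Hsp90b1: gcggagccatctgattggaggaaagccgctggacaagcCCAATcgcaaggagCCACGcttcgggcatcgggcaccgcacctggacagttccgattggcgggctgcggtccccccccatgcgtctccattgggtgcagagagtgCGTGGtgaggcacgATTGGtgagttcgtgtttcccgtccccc
Canx: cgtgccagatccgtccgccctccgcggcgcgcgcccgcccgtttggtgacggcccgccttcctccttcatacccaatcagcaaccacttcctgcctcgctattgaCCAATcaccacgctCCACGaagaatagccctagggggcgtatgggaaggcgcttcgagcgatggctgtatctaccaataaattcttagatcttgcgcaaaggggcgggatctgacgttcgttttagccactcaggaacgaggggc

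The 6 genes with an ERSE match had log2 fold changes from 0.11 to 2.31 with a median of 0.42, and in 5 of them, all but Canx, every Het library lay above every WT library. The core letters of the unfolded protein response element, TGACGTGG or TGACGTGA, occurred in 0.676% and 0.441% of all windows and in 4 members with no ERSE match. Those 4, Txndc11, Txndc5, Mogs and Ube2j1, had a median of 0.27, and the genotypes were separate in 3, all but Ube2j1. The match in Txndc11 lay within an annotated exon. The 35 genes whose window held none of these letters had a median of 0.07 and a range from -0.55 to 0.52, and Het lay above WT in 7. Het lay wholly above WT for 32.7% of all 55 members and for 7.15% of all tested genes. The search was prompted by the same fold changes, so the grouping by match is a description. The part of these elements in the result was not tested. A match describes the letters only and does not show that a factor was bound.

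At the translocon, Sec61a1 and Ssr4 were higher in Het at an unadjusted p under 0.05, and the log2 fold changes of the 9 genes ran from -0.06 to 0.42. Sec61a1, the pore-forming subunit of the channel, was at 217, 203 and 181 CPM in Het against 164, 166 and 165 CPM in WT (log2 fold change 0.28 ± 0.10 SE, unadjusted p = 0.0232, adjusted p = 0.685 by edgeR's quasi-likelihood test). The lowest Het library exceeded the highest WT library, and Het varied more than WT. Ssr4, the TRAP delta subunit, was at 99, 81.5 and 86.3 CPM in Het against 63.0, 71.5 and 82.5 CPM in WT (0.30 ± 0.13). Here Het 2 lay below WT 3, so the genotypes overlapped. Ssr2, the TRAP beta subunit, was at 92.0, 78.5 and 73.8 CPM in Het against 68.1, 71.7 and 72.9 CPM in WT (0.20 ± 0.11), separate but with Het 3 within 1 CPM of WT 3. Ssr3, the TRAP gamma subunit, was at 165, 192 and 196 CPM in Het against 192, 202 and 183 CPM in WT (-0.06 ± 0.11). Ssr1, the TRAP alpha subunit, stood at -0.05, and Sec62 and Sec63, which assist post-translational entry, stood at 0.01 and -0.03. Of the 9 genes, 6 were above and 3 below a fold change of 1, and 2 (22.2%) were higher at an unadjusted p under 0.05. That share was 3.39% over all tested genes. The median of the 9 genes was 0.11. Without Het 3 that median was -0.03 and without Het 2 it was 0.05.

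The small channel subunits are less certain. Sec61g, the gamma subunit, was counted at only 0.26 to 0.78 CPM in the 6 libraries. Its log2 fold change, the highest of the 9 translocon genes, was 0.42 ± 0.46 (SE), with a 95% interval from -0.64 to 1.48, and 4 other genes share 200 or more bases of its transcript at 95% identity or more. Sec61b, the beta subunit, has 3 such genes and was at 20.7, 21.7 and 17.2 CPM in Het against 17.9, 18.8 and 18.5 CPM in WT. The sources used here do not say how reads that map to several places were treated, so the levels of both, and of Derl1 and Spcs2, which have 1 such gene each, could be split among copies.

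The genotypes overlapped for each of the 4 signal peptidase members, as they did for 12581 of all 14606 tested genes. Spcs2, an accessory subunit, was at 67.2, 51.6 and 50.2 CPM in Het against 53.2, 47.4 and 50.2 CPM in WT (0.16 ± 0.13). Het 1 was the highest library, and the other two Het libraries lay within the WT range. Sec11c, a catalytic subunit, stood at 0.11 ± 0.10 and Spcs1, another accessory subunit, at 0.03. Spcs3, which is needed for catalysis, was at 49.0, 54.5 and 53.1 CPM in Het against 59.0, 65.1 and 50.2 CPM in WT (-0.15 ± 0.12). The 95% intervals of Spcs2 (-0.14 to 0.46) and Spcs3 (-0.42 to 0.11) both include 0.

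The oligosaccharyltransferase was also close between genotypes. Its catalytic subunits, Stt3a and Stt3b, stood at -0.04 ± 0.10 and 0.05 ± 0.10. Genotypes overlapped for 12581 of all 14606 tested genes, and for 5 of the 6 genes here. Dad1, a small core subunit, was the exception, at 72.9, 62.2 and 65.6 CPM in Het against 54.1, 58.6 and 61.5 CPM in WT (0.20 ± 0.10, unadjusted p = 0.0778 and adjusted p = 0.71 by edgeR's quasi-likelihood test). Ddost, a structural subunit, was at 104, 96.9 and 79.3 CPM in Het against 86.0, 85.6 and 89.4 CPM in WT (0.10 ± 0.12). Rpn2, a scaffold subunit, was at 218, 194 and 189 CPM in Het against 180, 182 and 202 CPM in WT (0.09 ± 0.10). Ddost was lowest of all 6 libraries in Het 3 and highest in Het 1.

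Both genes of GDP-mannose synthesis had every Het library above every WT library, as did 7.15% of all tested genes. Gmppb, the catalytic subunit of GDP-mannose pyrophosphorylase, which makes the mannose donor for the lipid-linked sugar chain, was at 19.4, 20.5 and 23.5 CPM in Het against 13.8, 10.6 and 11.4 CPM in WT. The genotypes were well separated, and the log2 fold change was 0.83 ± 0.14 (SE), a 1.78-fold higher level, with adjusted p = 0.298 by edgeR's quasi-likelihood test and 0.000492 by DESeq2. Gmppa, the regulatory subunit, was at 33.8, 27.6 and 28.7 CPM in Het against 21.6, 21.2 and 19.8 CPM in WT (0.52 ± 0.11, unadjusted p = 0.00133, adjusted p = 0.531 by edgeR's quasi-likelihood test and 0.0642 by DESeq2). Without Het 2 and Het 3 the log2 fold changes were 0.71 for Gmppb and 0.70 for Gmppa. In the annotation, 33.6% of the exon bases of Gmppb lie on the opposite strand from exons of Rnf123. The library kit keeps strand, but the sources used here do not say whether the counting used it. Rnf123 itself was at 81.4, 85.0 and 81.7 CPM in Het against 76.9, 72.5 and 73.4 CPM in WT (0.16), and its part in the Gmppb result was not tested.

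Among the lectin chaperones and glucose-trimming enzymes, 5 of 7 genes (71.4%) had every Het library above every WT library, against 7.15% of all tested genes. Calr, calreticulin, the soluble lectin chaperone, was at 827, 778 and 725 CPM in Het against 553, 625 and 567 CPM in WT (0.42 ± 0.11, unadjusted p = 0.00506, adjusted p = 0.648 by edgeR's quasi-likelihood test). Canx, calnexin, its membrane-bound counterpart, was at 361, 397 and 409 CPM in Het against 365, 375 and 341 CPM in WT (0.11 ± 0.10), with Het 1 inside the WT range. The other genes of the step trim glucose or add it back. Mogs, glucosidase I, which removes the outermost glucose, was at 53.4, 53.8 and 54.8 CPM in Het against 43.3, 45.0 and 45.3 CPM in WT (0.28 ± 0.08). Within each genotype Mogs varied little, with SDs of 0.731 CPM in Het against 1.11 CPM in WT. Ganab and Prkcsh, the subunits of glucosidase II, stood at 0.06 ± 0.09 and 0.12 ± 0.10.

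The paralogous glucosyltransferases that mark unfolded glycoproteins for another round with the lectins lay on opposite sides. Uggt1, the main form, was at 89.0, 97.1 and 91.5 CPM in Het against 81.7, 82.4 and 75.1 CPM in WT (0.22 ± 0.09, unadjusted p = 0.046). Uggt2 was at 0.768, 1.66 and 1.26 CPM in Het against 1.78, 1.78 and 1.90 CPM in WT (-0.55 ± 0.28, unadjusted p = 0.0875), with adjusted p = 0.694 for Uggt1 and 0.72 for Uggt2 by edgeR's quasi-likelihood test. Uggt2 was lowest in Het 1. The difference between the paralogs was not tested.

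All 9 disulfide isomerases and thioredoxin-like proteins had a fold change above 1, with a median of 0.18 (0.09 without Het 1). Of these, 4 (44.4%) were higher at an unadjusted p under 0.05, against 3.39% of all tested genes. Pdia6, an isomerase that associates with BiP, was at 257, 262 and 251 CPM in Het against 164, 215 and 196 CPM in WT (0.42 ± 0.12, unadjusted p = 0.00719, adjusted p = 0.649 by edgeR's quasi-likelihood test). Txndc11, a thioredoxin-domain protein, was at 30.6, 30.4 and 37.2 CPM in Het against 26.2, 24.99 and 22.9 CPM in WT (0.41 ± 0.12). Both were separate between genotypes, and the spread among WT libraries was wider for Pdia6. Pdia3, the isomerase that works with calnexin and calreticulin, was at 444, 451 and 456 CPM in Het against 354, 397 and 351 CPM in WT (0.29 ± 0.10). Txndc5, an isomerase also abundant in endothelium and plasma cells, was at 194, 196 and 193 CPM in Het against 171, 159 and 157 CPM in WT (0.26 ± 0.09). Summed B-lineage and plasma-cell markers ran from 23.4 to 38.8 CPM in Het and from 42.6 to 76.3 CPM in WT, with 7 of the 8 tested markers lower in Het, and summed endothelial markers ran from 220 to 291 CPM in Het and from 239 to 281 CPM in WT.

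Other members of the group overlapped. P4hb, the canonical protein disulfide isomerase and the most abundant of these 9 by CPM, was at 1705, 1891 and 1501 CPM in Het against 1765, 1551 and 1547 CPM in WT (0.07 ± 0.13). Pdia5 ran from 49.2 to 68.9 CPM in Het and from 46.4 to 65.4 CPM in WT (0.02 ± 0.17). Erp44, which retains oxidases and unassembled clients in the early secretory pathway, stood at 0.02 ± 0.08, with a 95% interval from -0.18 to 0.21. Erp29 and Txndc12 stood at 0.18 and 0.06.

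**Figure D2:**
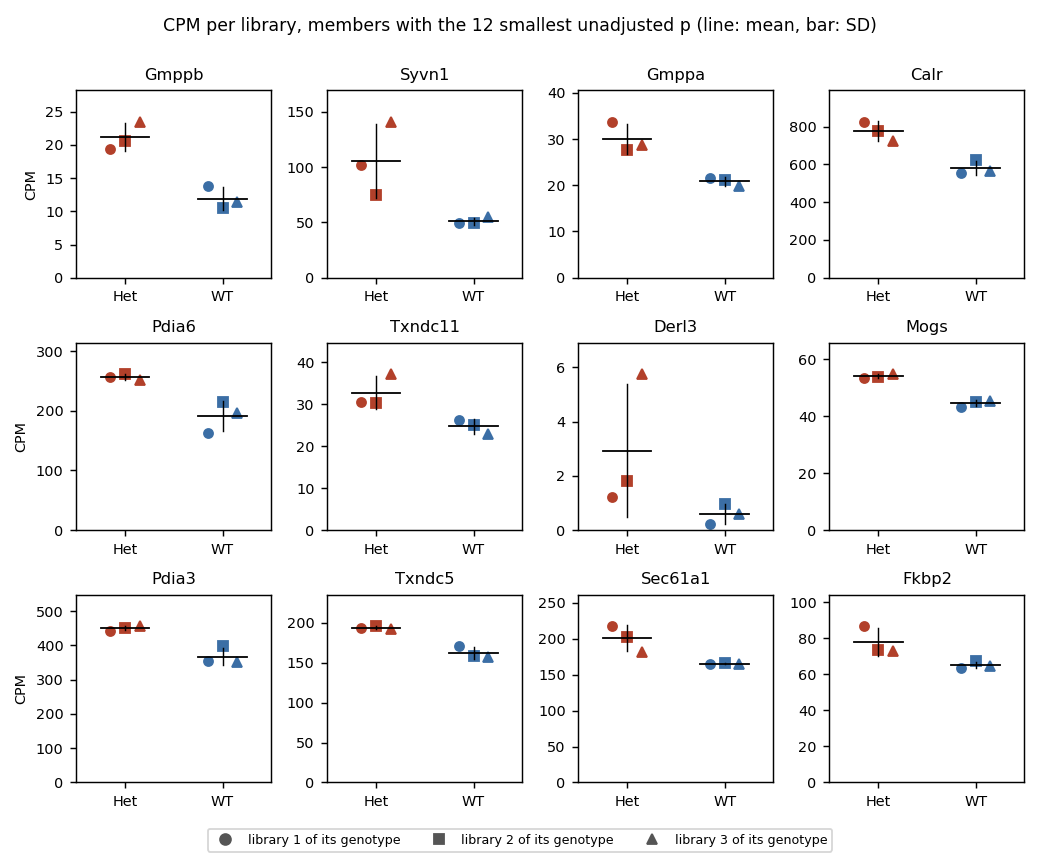
CPM (vertical axes, from 0) in each of the 3 Ptprd+/- (left) and 3 Ptprd+/+ (right) libraries for the 12 genes with the lowest unadjusted p. The mean is a horizontal and the SD a vertical line. In Syvn1 the Het points spread from 74.8 to 141 CPM while WT points lie between 49.3 and 54.6 CPM.

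Of the 6 HSP90, prolyl isomerase and BiP cofactor genes, Hsp90b1 and Fkbp2 were higher in Het at an unadjusted p under 0.05. These are 33.3% of the step, against 3.39% of all tested genes, and the other 4 overlapped between genotypes. Hsp90b1, endoplasmin, the HSP90 of the ER, was at 982, 1001 and 1072 CPM in Het against 827, 924 and 810 CPM in WT (0.25 ± 0.11, unadjusted p = 0.0482, adjusted p = 0.694 by edgeR's quasi-likelihood test). Fkbp2, a prolyl isomerase, was at 86.6, 73.6 and 73.1 CPM in Het against 63.6, 67.3 and 64.8 CPM in WT (0.25 ± 0.10). Neither gene had an overlap between genotypes. Ppib, cyclophilin B, another prolyl isomerase, was at 265, 234 and 209 CPM in Het against 183, 204 and 212 CPM in WT (0.24 ± 0.12), with Het 3 below WT 3. Sil1, the nucleotide exchange factor of BiP, stood at 0.05, and the co-chaperones Dnajc1 and Dnajc10 stood at 0.02 and -0.02. Exon bases of Hsp90b1 overlap other annotated genes over 5.38% on the same strand and 10.3% on the opposite strand. Opposite-strand overlap was larger for Erp29 (26.4%), Ppib (25%), Spcs1 (16.3%), Ssr2 (12.8%), Txndc5 (11.9%) and Sec62 (11.7%). Ube2g2 had 10.3% on the same strand, and further members had smaller overlaps.

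In ERAD, Syvn1 and Derl3 (16.7% of the step) lay wholly above WT, against 7.15% of all tested genes. The 10 other genes overlapped between genotypes. Syvn1, the membrane ubiquitin ligase at the core of the retrotranslocation complex, was at 102, 74.8 and 141 CPM in Het against 49.3, 49.4 and 54.6 CPM in WT. The lowest Het library lay above the highest WT library, and Het libraries spread more widely (SD 33.5 CPM) than WT libraries (SD 3.03 CPM). The log2 fold change was 1.05 ± 0.21 (SE), a 2.08-fold higher level, with adjusted p = 0.514 by edgeR's quasi-likelihood test and 0.00082 by DESeq2. It ran from 0.79 to 1.26 when each library was left out in turn and was 1.00 without Het 2 and Het 3.

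Derl3, a derlin of the retrotranslocation complex that is inducible by ER stress, was at 1.23, 1.81 and 5.76 CPM in Het against 0.217, 0.977 and 0.589 CPM in WT. These levels rest on 45, 85 and 429 counts in Het and 10, 50 and 22 counts in WT. The log2 fold change was 2.31 ± 0.68 (SE), with adjusted p = 0.654 by edgeR's quasi-likelihood test and 0.449 by DESeq2. Het 3 was far above the other libraries, and without it the log2 fold change was 1.35. Leaving out each of the other libraries gave up to 2.92, and leaving out both Het 2 and Het 3 gave 1.04. Derl3 is also abundant in plasma cells. The B-lineage and plasma-cell marker sums given above were lower in Het. Their highest markers by mean were Ighm (12.8 CPM in Het, 29.8 CPM in WT) and Igkc (11.6 and 20.2 CPM). Mzb1, the 1 tested marker higher in Het, stood at 0.05, and Tnfrsf17, at 0 to 4 counts per library, was not tested. The part of plasma cells in the Derl3 result was not tested. Its paralogs Derl1 and Derl2 stood at 0.04 ± 0.09 and 0.04 ± 0.13.

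The genotypes overlapped for Sel1l, Os9, Erlec1, the Edem genes and the ubiquitin-conjugating enzymes. Sel1l, the adaptor that stabilises Syvn1 and brings it substrates, was at 139, 173 and 201 CPM in Het against 166, 140 and 136 CPM in WT (0.22 ± 0.15). Het 1 lay among the WT libraries, and without Het 2 and Het 3 the log2 fold change was -0.08. Os9, a lectin that hands misfolded glycoproteins to Sel1l, was at 345, 302 and 279 CPM in Het against 279, 283 and 286 CPM in WT (0.13 ± 0.11), with Het 3 below WT 2. Erlec1, a related lectin, stood at -0.04 ± 0.10. The mannose-trimming Edem proteins stood at -0.15 ± 0.13 for Edem1, 0.13 ± 0.11 for Edem2 and -0.14 ± 0.17 for Edem3. The ubiquitin-conjugating enzymes Ube2j1 and Ube2g2 stood at -0.06 ± 0.09 and 0.05 ± 0.16.

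Each step was also summarised per library, by centring each gene's log2 CPM on its average of the 6 libraries and taking the median over the genes. GDP-mannose synthesis was at 0.36, 0.26 and 0.39 in Het and -0.20, -0.41 and -0.40 in WT. The disulfide isomerases were at 0.13, 0.10 and 0.12 in Het and -0.11, -0.04 and -0.10 in WT. The lectin and trimming genes were at 0.05, 0.13 and 0.09 in Het and -0.07, -0.03 and -0.11 in WT. In these steps all Het libraries stood above all WT libraries, and the same held for the HSP90 and translocon steps. ERAD was at -0.02, 0.05 and 0.06 in Het and -0.01, -0.05 and -0.01 in WT, and signal peptidase at 0.09, -0.03 and -0.05 in Het and -0.01, -0.05 and -0.03 in WT. The oligosaccharyltransferase was at 0.14, 0.04 and -0.05 in Het and -0.08, -0.08 and 0.01 in WT. In those 3 steps the genotypes overlapped, and in disulfide isomerase, HSP90, translocon, signal peptidase and oligosaccharyltransferase genes Het 1 was the highest library. Differences between steps were not tested.

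**Figure D3:**
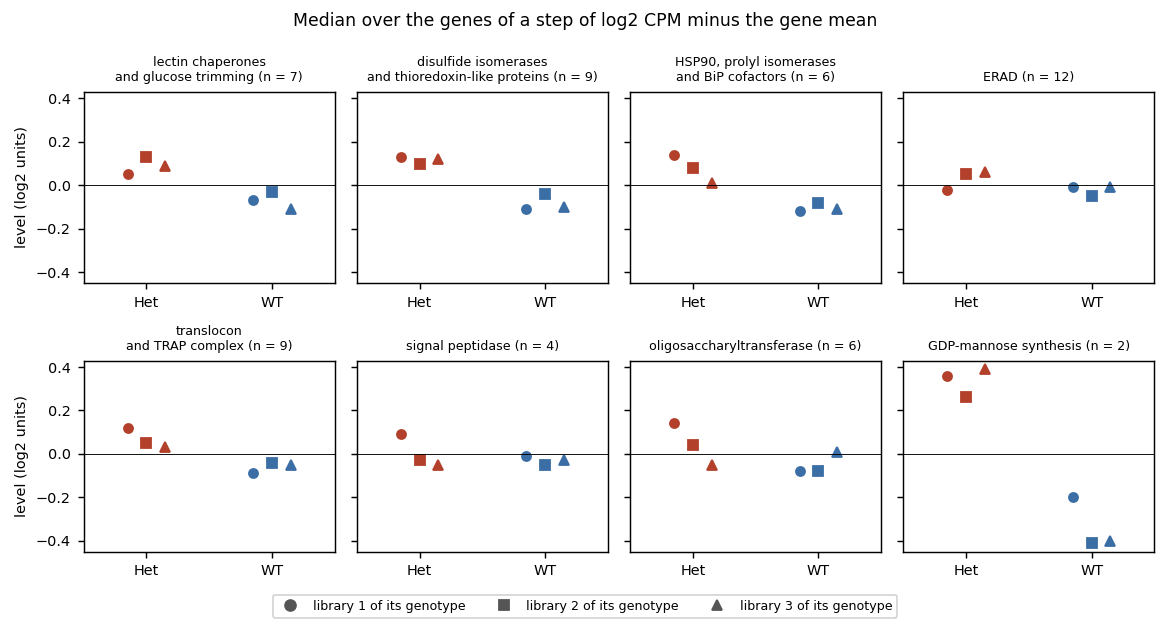
Median over the genes of each step of centred log2 CPM (vertical axis, log2 units) in every library, with Ptprd+/- to the left of Ptprd+/+. GDP-mannose synthesis shows the widest gap, 0.26 to 0.39 in Het against -0.41 to -0.20 in WT, and ERAD, signal peptidase and oligosaccharyltransferase overlap.

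A further 97 genes of the same pathway were listed in 6 groups, and 93 were in the table and tested. edgeR's quasi-likelihood test called 0 of them, and limma-voom called 0 genes of any kind. At an unadjusted p under 0.05 by edgeR, 10 were higher (10.8%) and 1 was lower, against 3.39% and 3.77% of all tested genes. DESeq2 called Pdia4 and Alg12 higher, where it called 0.17% of all genes higher. The median log2 fold change of the 93 genes was 0.08 (0.05 without Het 1), with 64 above (68.8%) and 29 below a fold change of 1. Among all tested genes 49.2% were above 1. Het lay wholly above WT for 23 of the 93 (24.7%) and wholly below for 4, against 7.15% and 6.72% of all tested genes. All 8 signal recognition particle and receptor genes had a fold change above 1 (median 0.15). Srp68, a protein of the particle, was at 62.0, 55.3 and 57.8 CPM in Het against 47.5, 47.3 and 47.8 CPM in WT (0.30 ± 0.09), and Srprb, a receptor subunit, stood at 0.39 ± 0.14. Srp54a stood at 0.84 ± 0.24 but at 0.616 to 1.302 CPM over the 6 libraries. Near-identical copies were sought for the 55 members only, so Srp54a was not checked for them. Among 17 membrane insertion and other translocation genes, 0 were at an unadjusted p under 0.05 (median 0.03). Emc4 and Asna1, which act in the insertion of membrane proteins, stood at 0.16 and 0.17. Sec11a, a catalytic subunit of signal peptidase, was at 44.9, 38.95 and 40.2 CPM in Het against 35.03, 37.1 and 37.7 CPM in WT (0.18 ± 0.10), with no overlap between genotypes.

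In lipid-linked oligosaccharide assembly, where GDP-mannose is used, the median of 24 genes was 0.10. Alg12, a mannosyltransferase of the ER lumen, was at 9.85, 10.5 and 11.7 CPM in Het against 7.14, 6.29 and 7.01 CPM in WT (0.65 ± 0.13, DESeq2 adjusted p = 0.0164, 0.514 by edgeR's quasi-likelihood test). Dpagt1, which starts the chain, stood at 0.22 ± 0.10, and Alg10b, which adds the last glucose, at -0.41 ± 0.18. Alg10b was at 9.35, 16.0 and 13.8 CPM in Het against 17.95, 17.4 and 16.8 CPM in WT. The 6 other oligosaccharyltransferase subunits were all above a fold change of 1 (median 0.19), with Ost4 at 0.28, Krtcap2 at 0.23 and Tmem258 at 0.22. All 6 overlapped between genotypes, as did 12581 of all 14606 tested genes.

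The 15 other disulfide and prolyl isomerases were split, with a median of -0.04. Pdia4, a disulfide isomerase, was at 274, 239 and 270 CPM in Het against 180, 190 and 178 CPM in WT (0.52 ± 0.10, DESeq2 adjusted p = 0.00905, 0.504 by edgeR's quasi-likelihood test). Ero1lb, which oxidises disulfide isomerases, was at 35.8, 35.1 and 49.3 CPM in Het against 27.9, 27.6 and 26.0 CPM in WT (0.56 ± 0.14). Tmx3, a transmembrane thioredoxin-like isomerase, was at 10.9, 13.5 and 13.0 CPM in Het against 17.5, 17.0 and 15.6 CPM in WT (-0.42 ± 0.12, unadjusted p = 0.00753, adjusted p = 0.649 by edgeR's quasi-likelihood test). Its relatives, named after their values were seen, stood at -0.21 for Tmx1, -0.11 for Tmx2 and -0.23 for Tmx4. Among 23 other ERAD factors the median was 0.07, and Herpud1, which organises the Syvn1 complex, was at 445, 547 and 682 CPM in Het against 426, 272 and 423 CPM in WT (0.58 ± 0.21). Het 1 and WT 1 were close for Herpud1, and without Het 2 and Het 3 its log2 fold change was 0.26. Selenos and Ubxn4, which link the retrotranslocation complex to the p97 extraction machinery, stood at 0.26 and 0.23.

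**Figure D4:**
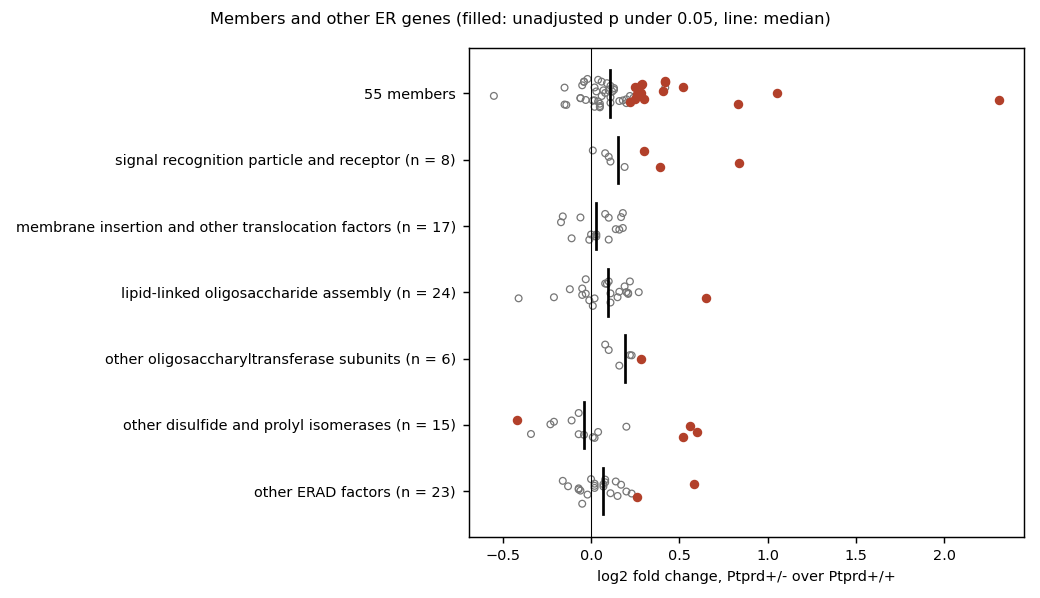
Log2 fold change (horizontal axis, Ptprd+/- over Ptprd+/+) of the 55 members and of the 93 other genes by group, with the median as a bar and genes at an unadjusted p under 0.05 filled. Medians run from -0.04 in other disulfide and prolyl isomerases to 0.19 in other oligosaccharyltransferase subunits, beside 0.11 for the members.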

How the data were processed

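Liver RNA was measured in 6 libraries. The submitters' processing notes name STAR 2.5.3a, HTSeq 0.6.1p1, cutadapt 1.10, bcl2fastq 2.17.1.14, DESeq2 1.16.1 and build mm10. The sources used here give neither the annotation release nor the strand setting, nor how multi-mapping reads were counted. The authors deposited whole-number read counts per gene, raw per the file headers; their normalized columns and comparison table were not used.

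Here genes were filtered with filterByExpr, which left 14606 genes holding 99.955% of counts, and library sizes were adjusted with TMM factors. The main test was the two-sided quasi-likelihood test of edgeR 4.0.16 in R 4.3.3, Het over WT, with no term besides genotype. Its p-values were adjusted by Benjamini-Hochberg over the 14606 genes (threshold 0.05), and the fit was tested on simulated data. SEs come from the F statistic, and log2 CPM levels used a prior count of 2. The biological coefficient of variation was 18.5%. DESeq2 1.42.0, limma 3.58.1 (voom) and other scalings, filters and left-out libraries served as alternatives. Intervals are 95%.

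Members and lists were chosen with earlier results of these data known. Genes named by rule were, per step, the 3 with the smallest p and the one with the highest CPM, genes called by edgeR or DESeq2, and the 3 with the smallest p of each further list; other members are named to complete their step. Overlap with other genes' exons and near-identical copies were read from a GENCODE annotation.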

Additional observations from a re-analysis of the deposited data

How the results depend on the processing

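Of the 45 genes named by rule, 42 kept their sign under every alternative run and 3 did not: P4hb ran from -0.01 (without Het 2) to 0.15 with each library left out, Ssr3 from -0.11 to 0.00 (without Het 1), and Sel1l was at -0.08 without both Het 2 and Het 3. DESeq2 called 56 genes in all, 2 members and 2 further pathway genes, and edgeR without a filter called 73 genes and 3 members, against 0 as fitted. A minimum of 1 CPM in 3 libraries put the translocon median at 0.06. Leaving out both Het 2 and Het 3 left 1 Het library, assumed to vary like WT, so only fold changes are given. The medians were then 0.21 over members, 0.26 for disulfide isomerases, 0.22 for HSP90 genes, -0.02 for ERAD, 0.18 for the translocon, 0.12 for signal peptidase, 0.18 for the oligosaccharyltransferase and 0.13 for further pathway genes.

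Leaving out each library in turn gave 0 to 1 called genes in all (1 without Het 2) and 0 members called. At an unadjusted p under 0.05 by edgeR, 9 to 14 members were higher (9 without WT 1 and without WT 3) and 0 to 1 lower. Over all tested genes, 323 to 596 were higher and 363 to 832 lower, fewest without WT 2 and most without Het 2. The medians ran from 0.06 to 0.13 over members, 0.05 to 0.09 over further pathway genes, 0.03 to 0.10 for ERAD, 0.64 to 0.75 for GDP-mannose synthesis, 0.10 to 0.17 for HSP90 genes, 0.09 to 0.26 for disulfide isomerases, 0.12 to 0.16 for lectin genes, 0.03 to 0.13 for the oligosaccharyltransferase, -0.01 to 0.11 for signal peptidase and -0.03 to 0.13 for the translocon (-0.03 without Het 3). The cause of these shifts was not tested.

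Same-numbered libraries deviated from their group means with correlations of -0.0679, 0.116 and 0.152, so the numbers were not taken to pair them. With replicate number as a block in edgeR, 0 genes were called. At an unadjusted p under 0.05, 11 members and 473 of all tested genes were then higher. Low counts limit Derl3, Sec61g, Uggt2 and Srp54a, counted at a few CPM or less, and why they were low was not tested.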
